A study of Caenorhabditis elegans with 12 samples.

Results

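The proteasome subunit genes of Caenorhabditis elegans were followed in whole worms on 4 diets. The 32 genes were listed by gene identifier, and they were chosen with earlier results of these data known. They are 7 alpha and 7 beta genes of the 20S core (pas-1 to pas-7 and pbs-1 to pbs-7), 6 ATPase genes of the 19S cap (rpt-1 to rpt-6) and 12 non-ATPase genes of the cap (the rpn genes). All 32 of the 46929 genes in the table had enough reads to be tested, as did 14610 genes in all.

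The proteasome is the protease that degrades proteins tagged with ubiquitin. Its 20S core is a barrel of alpha and beta rings, and the caspase-like, trypsin-like and chymotrypsin-like cutting sites sit in pbs-1, pbs-2 and pbs-5. The 19S cap recognises ubiquitin, removes it and threads the substrate into the barrel with a ring of ATPases. In worms, the SKN-1A form of the transcription factor SKN-1, which is processed by the protease DDI-1 and the glycanase PNG-1, raises proteasome genes together when proteasome function falls, and the lid subunit RPN-6.1 has been tied to proteasome activity and lifespan.

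Messenger RNA was enriched from total RNA of whole worms and sequenced in 12 libraries, 3 for each diet. The control diet was compared with 3 diets that held bovine thymus: desiccated thymus (labelled Dessicated Thymus), a cytoplasmic extract (labelled Cytoplamsic Thymus Gland Extract) and a nuclear extract (labelled Nuclear Thymus Gland Extract). All worms grew on NGM with live bacteria (labelled OPS0) until the L4 larval stage, and the thymus diets began on day 1 of adulthood. The sources used here give no strain, dose or age at collection. No label states whether the 3 libraries of a diet were separate cultures, so the p-values speak only of the spread between these libraries, part of which may be technical.

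Libraries held between 23.1 and 33.4 (in 1e6) deposited read counts, and each proteasome gene had between 2887 counts (pas-2) and 15022 counts (rpn-1) in a library. Reads on ribosomal RNA genes were 14% of the total in desiccated thymus replicate 3 and 0.377% to 2.16% in the others. Levels are given as CPM, the counts per 1e6 counts of a library total scaled by TMM, a factor that balances most genes between libraries. Germline, intestine, muscle, hypodermis, neuron and sperm markers were all detected, with none of the tested markers at 0 in all 12 libraries.

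All subunit genes were transcribed at high and similar levels. Per kilobase of exon, control levels ran from 130 CPM per kb for rpn-2, a large scaffold of the cap, to 305 ± 8.79 CPM per kb (SD, n = 3) for pas-3, an alpha ring subunit, a 2.35-fold range. The median over all tested genes was 7.34 CPM per kb. By role, the control medians per kb were 249 CPM for the beta genes, 226 CPM for the alpha genes, 205 CPM for the ATPase genes and 179 CPM for the non-ATPase genes. The second highest gene was pbs-5 with 298 ± 3.18 CPM per kb (SD, n = 3), and the lowest beside rpn-2 was rpt-6 with 131 ± 3.66. Of the 31 pairs of neighbours in this order, 5 had control libraries that did not overlap: pbs-5 above pas-6, rpt-5 above pas-4, pas-4 above rpn-9, pas-2 above rpn-6.1 and rpt-4 above rpt-6. The order was much the same on every diet, with a largest shift of 5 places, that of rpn-3 from place 9 in the control to place 14 on the nuclear extract.

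**Figure D1:**
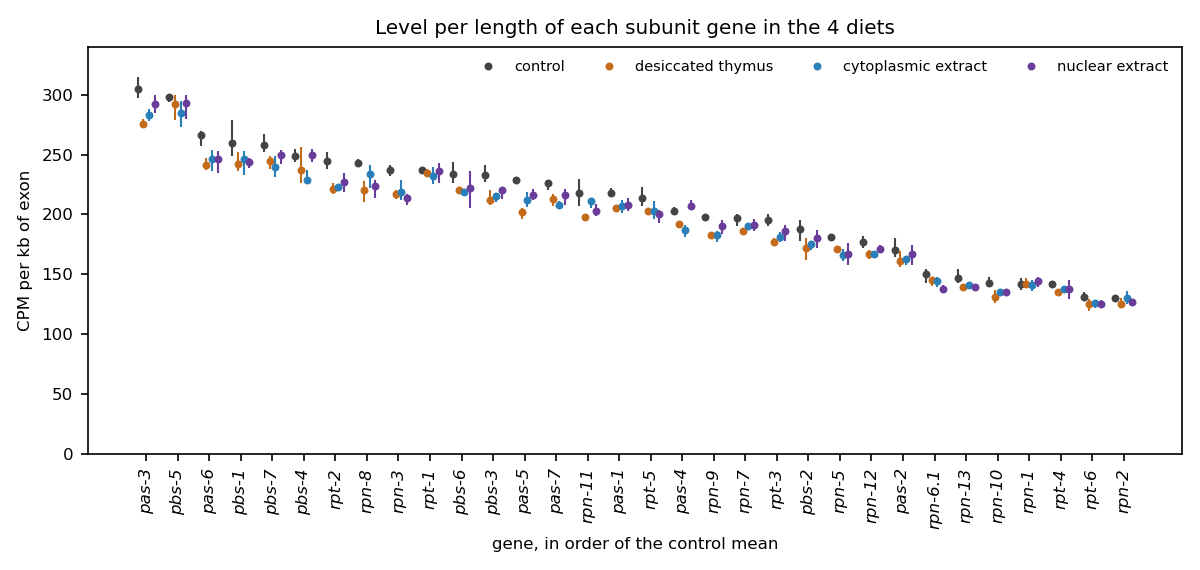
CPM per kilobase of exon of the 32 proteasome genes (y axis) in the order of their control means (x axis); points are means of 3 libraries on each of the 4 diets and bars run from the lowest to the highest library. Levels fall from 305 CPM per kb for pas-3 to 130 for rpn-2 in the control, and the 4 diets follow the same order within 5 places.

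Replicates of a diet were close. The median within-group SD was 0.04 on the log2 CPM scale for the 32 genes, 0.05 for the 1501 other tested genes whose mean lay in the same range of 139 to 451 CPM, and 0.17 for all tested genes. Below, the shares at an unadjusted p under 0.05 and of libraries that did not overlap are those of all tested genes. They were not taken for the 1501 genes of like level, whose replicates were closer than those of all tested genes.

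On every thymus diet the proteasome genes lay slightly below the control. Their summed CPM, as a percentage of the control mean, was 99.4, 100 and 101 in the control libraries. It was 93.3, 93.9 and 94.5 on desiccated thymus, 92.2, 95.3 and 96.4 on the cytoplasmic extract, and 92.5, 96.9 and 97.3 on the nuclear extract. None of the 9 thymus libraries reached the control range, and the lowest library of each extract, cytoplasmic replicate 1 and nuclear replicate 3, stood apart from the others of its diet. The libraries held 29 to 32 of the 32 genes below their control mean on desiccated thymus, 30 to 32 on the cytoplasmic extract and 25 to 31 on the nuclear extract.

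As a share of all reads outside ribosomal RNA genes, without TMM scaling, the 32 genes took 0.824% to 0.839% in the control, 0.796% to 0.798% on desiccated thymus, 0.795% to 0.817% on the cytoplasmic extract and 0.799% to 0.833% on the nuclear extract. On this scale nuclear extract replicate 2 lay inside the control range, whereas the libraries of the other thymus diets lay below it. In whole worms, fewer cells of a type and less RNA per cell cannot be told apart.

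**Figure D2:**
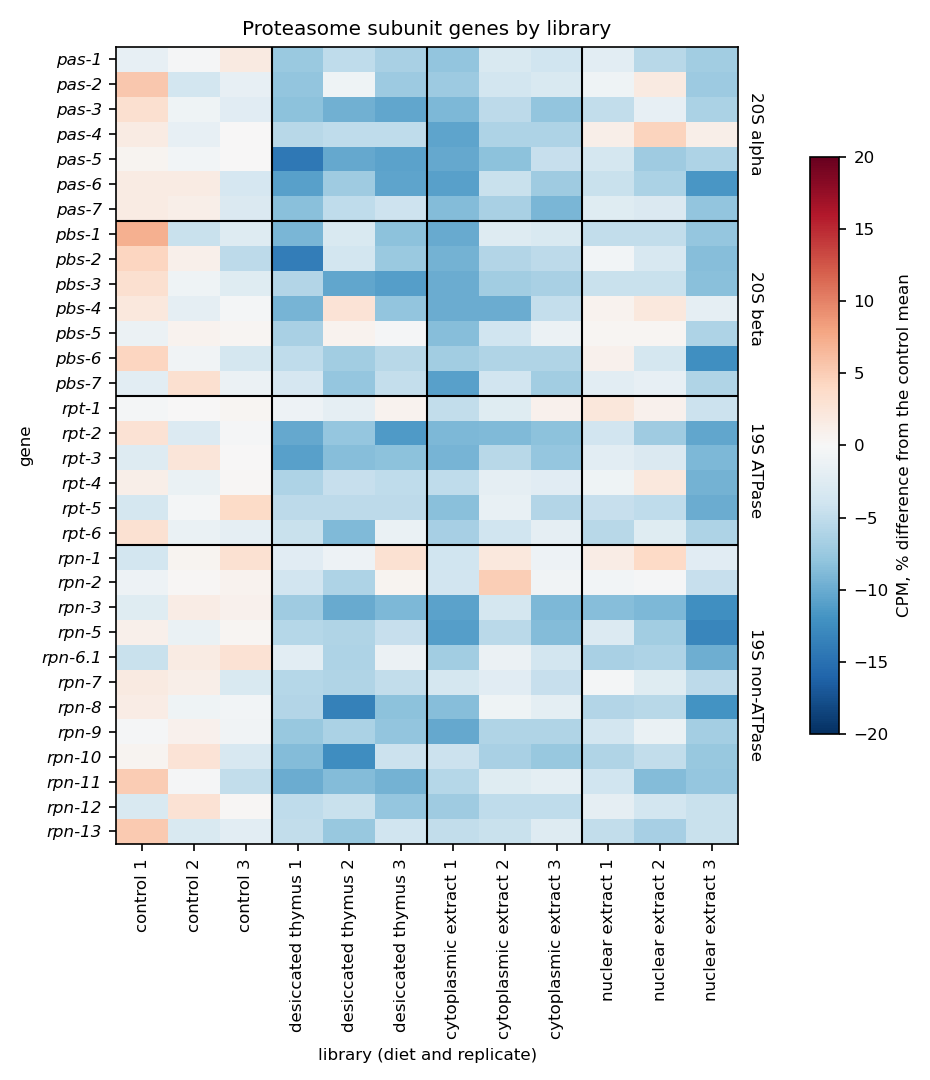
CPM of each proteasome gene (rows, grouped by role) in each of the 12 libraries (columns), as the percent difference from that gene's control mean; blue is lower and red is higher. Desiccated thymus libraries have 29 to 32 genes below the control mean, cytoplasmic extract libraries 30 to 32 and nuclear extract libraries 25 to 31.

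On desiccated thymus, 3 of 32 proteasome genes fell and none rose against the control (edgeR quasi-likelihood test, adjusted over all tested genes by Benjamini-Hochberg, threshold 0.05), where 0.897% of all tested genes fell. These were pas-5, rpt-2 and pas-3. All 32 log2 fold changes were below 0, as were 50.6% of those of all tested genes, and the median was -0.09 against -0.0027 for all tested genes and -0.04 for the 1501 other genes of like level, of which 73.6% were below 0 and 1.73% fell. The libraries did not overlap for 22 genes, all lower than the control, against 7.97% of all tested genes, and 18 genes were lower at an unadjusted p under 0.05, against 6.34%. Just outside the threshold were rpt-3, an ATPase, and rpn-3, a lid subunit, with adjusted p of 0.0507 and 0.0508 (edgeR quasi-likelihood, Benjamini-Hochberg). No gene passed without desiccated thymus replicate 1, and 1 passed without desiccated thymus replicate 3, the library rich in ribosomal RNA. With scaling by library totals no gene passed, and DESeq2 called 11 genes, all lower, where it called 2.16% of its genes (those it gave an adjusted p) lower.

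On the cytoplasmic extract, no proteasome gene passed edgeR's quasi-likelihood (QL) test, where 0.212% of all tested genes fell, 15 were lower at an unadjusted p under 0.05 against 4.79% of all tested genes, and DESeq2 called 5, all lower, where it called 0.887% of its genes lower. Of the fold changes, 31 of 32 were below 0, as were 49.8% of those of all tested genes, with rpn-2 at 0.00053, and the median was -0.09, against 0.00076 for all tested genes and -0.04 for the genes of like level, of which 82.1% were below 0 and 0.333% fell. The libraries did not overlap for 20 genes, all lower, against 7.78% of all tested genes. The smallest adjusted p was 0.106, for rpt-2 (edgeR quasi-likelihood, Benjamini-Hochberg).

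On the nuclear extract, rpn-3 alone fell and no gene rose (edgeR quasi-likelihood test, Benjamini-Hochberg threshold 0.05), where 4.51% of all tested genes fell. Of the 32 genes 29 were below 0, as were 47.8% of all tested genes, and pas-4, pbs-4 and rpn-1 were above it at 0.03, 0.01 and 0.01. The median was -0.07, as was that of the 1501 genes of like level, of which 80.8% were below 0 and 14% fell, while the median of all tested genes was 0.02. In all, 11 genes were lower at an unadjusted p under 0.05, against 12.9% of all tested genes, and the libraries did not overlap for 15, all lower, against 15.4%. These shares were not taken for the genes of like level, so nothing about the 32 genes is read from these counts. The count was 0 without nuclear extract replicate 3, 3 without nuclear extract replicate 1 or without cytoplasmic extract replicate 2, and 2 without control replicate 1 or control replicate 3. With scaling by library totals no gene passed, and DESeq2 called 9 genes, all lower, where it called 9.76% of its genes lower.

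The alpha ring held the largest single difference. The alpha ring forms the gate of the barrel, and pas-5 (CELE_F25H2.9, chromosome I, 10566350 to 10567300, plus strand, WBcel235) encodes one of its subunits. Its level was 197, 195 and 196 CPM in the control, 168, 176 and 175 CPM on desiccated thymus, 176, 180 and 187 CPM on the cytoplasmic extract, and 189, 182 and 184 CPM on the nuclear extract. All 9 thymus libraries lay below all 3 control libraries. On desiccated thymus pas-5 fell by 0.18 on the log2 scale (SE 0.04, adjusted p 0.01, edgeR quasi-likelihood, Benjamini-Hochberg, a change of -11.9%). The differences of -0.11 on the cytoplasmic extract and -0.08 on the nuclear extract did not pass (adjusted p 0.191 and 0.13, same test). The call on desiccated thymus was lost without desiccated thymus replicate 1 and with scaling by library totals (adjusted p 0.0542 and 0.0607, same test).

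The most abundant alpha gene per length, pas-3 (CELE_Y110A7A.14, chromosome I, 5105110 to 5106048, minus strand), stood at 281, 270 and 266 CPM in the control and 250, 246 and 244 CPM on desiccated thymus. It stood at 248, 258 and 251 CPM on the cytoplasmic extract and 259, 268 and 255 CPM on the nuclear extract. Desiccated thymus and the cytoplasmic extract lay wholly below the control, and nuclear extract replicate 2 lay within it. On desiccated thymus pas-3 fell by 0.14 on the log2 scale (SE 0.03, adjusted p 0.029, edgeR quasi-likelihood, Benjamini-Hochberg, a change of -9.51%). The differences were -0.11 and -0.06 on the cytoplasmic and nuclear extracts, with adjusted p of 0.184 and 0.222. The call on desiccated thymus was lost in 9 of 20 alternatives. These were leaving out control replicate 1, control replicate 2 or any 1 desiccated thymus library (adjusted p 0.0603 to 0.108, same edgeR test), no filter on low counts (0.0555), the 2 groups alone (0.0998), and scaling by library totals with or without ribosomal RNA genes (0.184 and 0.0785).

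Of the other alpha genes, pas-4 (CELE_C36B1.4) differed between the extracts. Its level was 182, 176 and 179 CPM in the control, 169, 170 and 170 CPM on desiccated thymus, 160, 168 and 168 CPM on the cytoplasmic extract, and 181, 187 and 181 CPM on the nuclear extract. The nuclear extract libraries overlapped the control and lay above all those of the other thymus diets. Against the cytoplasmic extract, pas-4 was the 1 proteasome gene that was higher on the nuclear extract, by 0.14 on the log2 scale (SE 0.03, adjusted p 0.0483, edgeR quasi-likelihood, Benjamini-Hochberg), where 1.59% of all tested genes were higher. This call was lost without any one library other than control replicate 1, when the model was fitted to the 2 extracts alone, with the replicate block, with no filter on low counts, and with scaling by RLE size factors or by library totals. The remaining alpha genes, pas-1, pas-2, pas-6 and pas-7, had differences of -0.09, -0.08, -0.14 and -0.09 on desiccated thymus, none past the threshold.

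No beta gene passed against the control on any single diet, although all 7, all 7 and 6 of the 7 were below 0 on desiccated thymus, the cytoplasmic and the nuclear extract. At an unadjusted p under 0.05, 2, 3 and 1 of them were lower on these diets, where 6.34%, 4.79% and 12.9% of all tested genes were. For pbs-1 (CELE_K08D12.1), the caspase-like subunit, levels were 229, 204 and 208 CPM in the control, 194, 207 and 196 CPM on desiccated thymus, 192, 208 and 207 CPM on the cytoplasmic extract, and 203, 203 and 197 CPM on the nuclear extract. Control replicate 1 was the highest library, and the other control libraries lay among those of desiccated thymus and the cytoplasmic extract and next to those of the nuclear extract. The log2 differences of pbs-1 were -0.10, -0.08 and -0.09, each with SE 0.05.

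The trypsin-like subunit pbs-2 (CELE_C47B2.4) stood at 197, 191 and 179 CPM in the control, 163, 182 and 175 CPM on desiccated thymus, 171, 178 and 179 CPM on the cytoplasmic extract, and 188, 183 and 173 CPM on the nuclear extract. Its log2 differences were -0.13, -0.10 and -0.06, each with SE 0.05, and the libraries overlapped those of the control on desiccated thymus and the nuclear extract. The chymotrypsin-like subunit pbs-5 (CELE_K05C4.1) stood at 312, 318 and 317 CPM in the control, 295, 318 and 315 CPM on desiccated thymus, 289, 303 and 312 CPM on the cytoplasmic extract, and 317, 317 and 296 CPM on the nuclear extract. Its libraries overlapped the control on all 3 diets. Its log2 differences were -0.03, -0.07 and -0.02, each with SE 0.04, and the first turned to 0.0034 without desiccated thymus replicate 1 and the last to 0.019 with scaling by library totals, to 0.014 with totals without ribosomal RNA genes, and to 0.0080 without nuclear extract replicate 3.

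Of the ATPase ring, which unfolds substrates and opens the gate, rpt-2 (CELE_F29G9.5, chromosome V, 6016059 to 6017669, minus strand) was lower in all thymus libraries. Its level was 371, 351 and 360 CPM in the control, 324, 333 and 320 CPM on desiccated thymus, 328, 329 and 331 CPM on the cytoplasmic extract, and 347, 335 and 323 CPM on the nuclear extract. All 9 thymus libraries lay below the control. It fell by 0.15 on the log2 scale on desiccated thymus (SE 0.03, adjusted p 0.027, edgeR quasi-likelihood, Benjamini-Hochberg, a change of -9.70%). On the cytoplasmic and nuclear extracts its differences of -0.13 and -0.11 had adjusted p of 0.106 and 0.0535. The call on desiccated thymus was lost in 6 of 20 alternatives: without control replicate 1, control replicate 3, desiccated thymus replicate 1 or desiccated thymus replicate 3 (adjusted p 0.0566 to 0.112, same edgeR test), with the 2 groups alone (0.0897) and with scaling by library totals (0.164). At the other end, rpt-1 showed differences of -0.01, -0.03 and -0.0050, and its libraries overlapped the control on every diet.

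The non-ATPase genes ranged from some of the larger differences to none. The lid subunit rpn-3 (CELE_C30C11.2, chromosome III, 8447353 to 8449346, plus strand) stood at 430, 447 and 444 CPM in the control, 409, 396 and 401 CPM on desiccated thymus, 393, 425 and 401 CPM on the cytoplasmic extract, and 403, 401 and 386 CPM on the nuclear extract. All 9 thymus libraries lay below the control. On the nuclear extract rpn-3 fell by 0.15 on the log2 scale (SE 0.04, adjusted p 0.0133, edgeR quasi-likelihood, Benjamini-Hochberg, a change of -9.88%). The differences were -0.13 on desiccated thymus and -0.12 on the cytoplasmic extract (adjusted p 0.0508 and 0.166). The call on the nuclear extract was lost without nuclear extract replicate 3 and with scaling by library totals (adjusted p 0.0676 and 0.374, same edgeR test).

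The lid subunit rpn-6.1 (CELE_F57B9.10), which holds the cap to the core, stood at 235, 250 and 253 CPM in the control, 241, 231 and 243 CPM on desiccated thymus, 229, 243 and 237 CPM on the cytoplasmic extract, and 230, 231 and 222 CPM on the nuclear extract. The nuclear extract libraries lay below the control and the others overlapped it. Its differences were -0.05, -0.06 and -0.11, and the last had an adjusted p of 0.0719 (edgeR quasi-likelihood, Benjamini-Hochberg).

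The deubiquitinase rpn-11 (CELE_K07D4.3), which cuts ubiquitin from the substrate, stood at 252, 239 and 228 CPM in the control, 216, 219 and 217 CPM on desiccated thymus, 226, 234 and 235 CPM on the cytoplasmic extract, and 230, 219 and 221 CPM on the nuclear extract. Desiccated thymus lay below the control and both extracts overlapped it. Its differences were -0.14, -0.05 and -0.11 (adjusted p 0.0607, 0.623 and 0.0891, edgeR quasi-likelihood, Benjamini-Hochberg).

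The ubiquitin receptor rpn-10 (CELE_B0205.3) stood at 186, 190 and 179 CPM in the control, 169, 162 and 177 CPM on desiccated thymus, 177, 173 and 171 CPM on the cytoplasmic extract, and 174, 176 and 171 CPM on the nuclear extract. Its thymus libraries all lay below the control, with differences of -0.13, -0.09 and -0.09 and none past the threshold. The other ubiquitin receptor, rpn-13 (CELE_C56G2.7), stood at 231, 213 and 215 CPM in the control, 209, 203 and 211 CPM on desiccated thymus, 209, 210 and 214 CPM on the cytoplasmic extract, and 209, 205 and 210 CPM on the nuclear extract. Only cytoplasmic extract replicate 3 reached the control range, and the differences of -0.08, -0.06 and -0.08 did not pass. The large scaffolds of the base, rpn-1 and rpn-2, had differences of -0.0018 and -0.05 on desiccated thymus, -0.01 and 0.00053 on the cytoplasmic extract, and 0.01 and -0.03 on the nuclear extract, and overlapped the control on each.

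**Figure D3:**
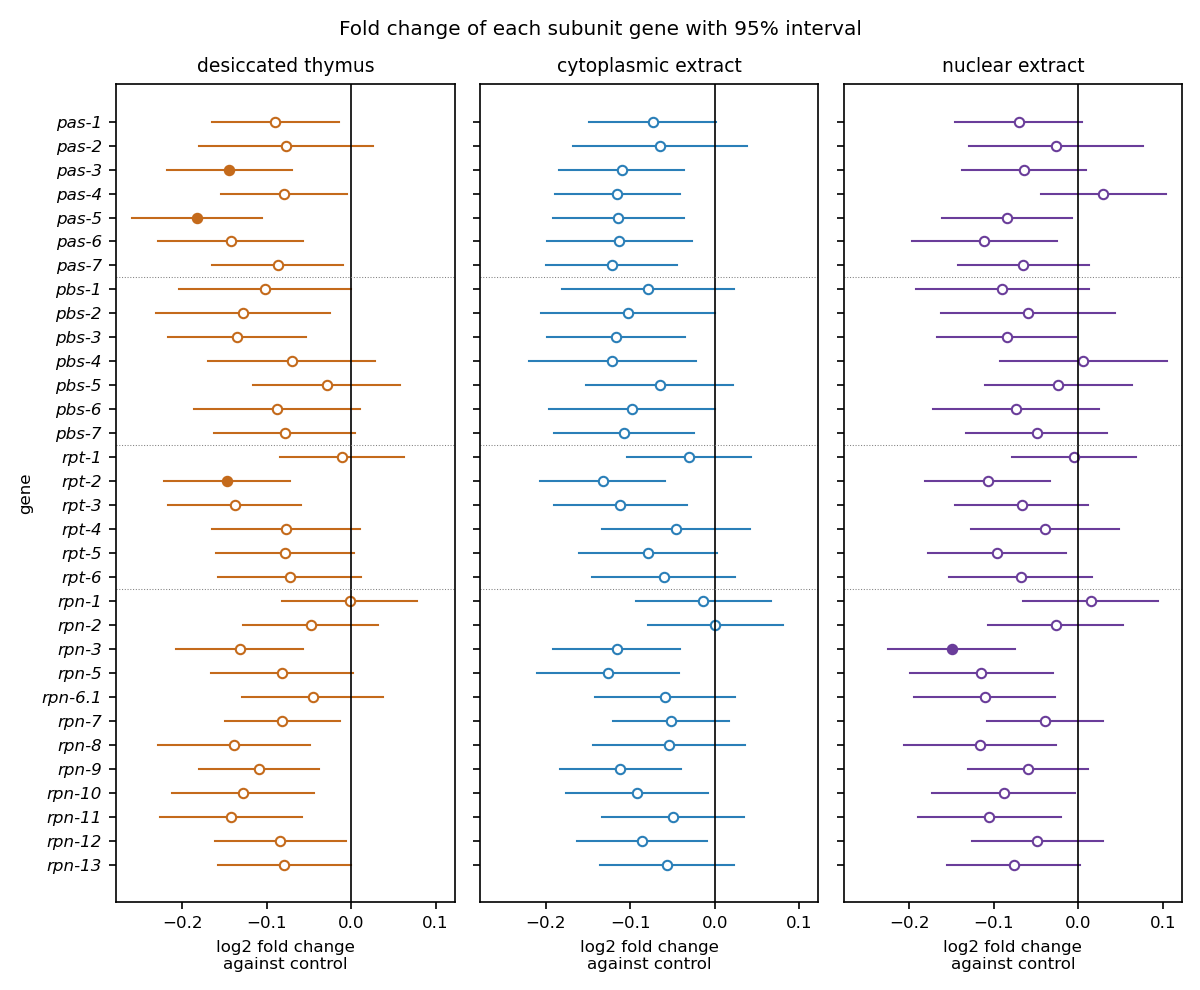
Log2 fold change of each proteasome gene against the control (x axis) with its 95% interval from edgeR's fit, for each of the 3 thymus diets; filled points passed the adjusted p threshold. The filled points are pas-3, pas-5 and rpt-2 on desiccated thymus and rpn-3 on the nuclear extract, and the intervals of 18, 15 and 11 genes lie wholly below 0 on desiccated thymus and the cytoplasmic and nuclear extracts.

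Between the roles, the median log2 differences on desiccated thymus and the cytoplasmic and nuclear extracts were -0.09, -0.11 and -0.07 for the 20S core and -0.08, -0.06 and -0.07 for the 19S cap. Splitting the non-ATPase genes into 8 lid and 4 base genes, a split made after values were seen, gave medians of -0.10, -0.07 and -0.11 for the lid and -0.06, -0.04 and -0.05 for the base. Within each library, the mean log2 CPM of the core minus that of the non-ATPase genes was -0.43 to -0.38 in the control, -0.45 to -0.38 on desiccated thymus, -0.45 to -0.43 on the cytoplasmic extract and -0.40 to -0.38 on the nuclear extract. All 3 thymus diets overlapped the control in this balance, and the 2 extracts did not overlap each other.

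The thymus diets were also compared with each other. Desiccated thymus against the cytoplasmic extract gave no call in either direction by edgeR's QL test or by DESeq2, where 1.21% of all tested genes changed by edgeR's test. At an unadjusted p under 0.05, 1 of the 32 genes differed, against 9.92% of all tested genes. Desiccated thymus against the nuclear extract gave none by either tool, where 0.164% of all tested genes changed by edgeR's test, and 3 of the 32 differed at an unadjusted p under 0.05, against 13.1%. Nothing about the 32 genes is read from these counts. The 95% intervals of the single genes ran at their widest from -0.18 to 0.15 on the log2 scale in both comparisons. The median was 0.02 for the nuclear against the cytoplasmic extract.

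For the mean of the 3 thymus diets against the control, the median log2 fold change was -0.09 and all 32 genes were below 0, as were 49.6% of all tested genes. Of these, 7 fell and none rose (edgeR quasi-likelihood test, Benjamini-Hochberg threshold 0.05), where 1.83% of all tested genes fell. They were the lid gene rpn-3, the ATPase genes rpt-2 and rpt-3, the alpha genes pas-3, pas-5 and pas-6, and the beta gene pbs-3. Across the genes of like level, the median was -0.05, 83.7% were below 0 and 4.73% fell. The count was 1 without control replicate 1 or control replicate 2, 3 without cytoplasmic extract replicate 1, cytoplasmic extract replicate 3 or nuclear extract replicate 3, and 4 without desiccated thymus replicate 3 or nuclear extract replicate 2. With scaling by library totals no gene passed, and DESeq2 called 15 genes, all lower, where it called 5.54% of its genes lower. These comparisons share the control libraries, so that the 28 genes below 0 in all 3 single comparisons are not 3 independent observations.

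Over the 4 diets at once, 4 genes differed, pas-5, pas-4, rpn-3 and rpt-2 (adjusted p 0.027, 0.0402, 0.0402 and 0.0413, edgeR quasi-likelihood, Benjamini-Hochberg), where 7.67% of all tested genes did. The count was 0 without control replicate 2, desiccated thymus replicate 1, desiccated thymus replicate 3 or nuclear extract replicate 3, 1 without control replicate 3, cytoplasmic extract replicate 1, cytoplasmic extract replicate 3 or nuclear extract replicate 2, and 2 without desiccated thymus replicate 2, cytoplasmic extract replicate 2 or nuclear extract replicate 1. With scaling by library totals no gene passed, and DESeq2 called 14, where it called 17.5% of its genes.

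Genes that work with the proteasome were read from lists chosen with earlier results of these data known. Against the control, 0.897%, 0.212% and 4.51% of all tested genes fell and 2.97%, 0.5% and 8.79% rose on desiccated thymus and the cytoplasmic and nuclear extracts, and 16.5%, 12.6% and 30.3% differed at an unadjusted p under 0.05. Of the genes of like level to the proteasome genes, 1.73%, 0.333% and 14% fell. The counts of each list stand against these shares.

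Of 11 tested proteasome-associated genes, 2, 1 and 3 fell and none rose on desiccated thymus and the cytoplasmic and nuclear extracts (edgeR quasi-likelihood test, Benjamini-Hochberg threshold 0.05), with medians of -0.07, -0.07 and -0.12. The gene aip-1, an arsenite-inducible protein that binds the proteasome, fell on all 3 diets, from 127 ± 4.73 CPM (SD, n = 3) in the control to 66.9 ± 3.88 CPM, 77.3 ± 4.44 CPM and 65.0 ± 1.17 CPM. Its log2 changes were -0.92, -0.71 and -0.96, larger in size than that of any subunit gene. It is in each count of the list and is the only fall on the cytoplasmic extract. The list was chosen with earlier results known, so nothing about it is read from these counts. The shuttle factor ubql-1, which carries ubiquitinated proteins to the proteasome, fell by 0.14 on the log2 scale on desiccated thymus and by 0.15 on the log2 scale on the nuclear extract.

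Of 8 genes of the SKN-1A route, none passed on desiccated thymus or the cytoplasmic extract, with 3 and 1 at an unadjusted p under 0.05, against 16.5% and 12.6% of all tested genes. On the nuclear extract 2 fell and 1 rose by the same edgeR test, where 4.51% of all tested genes and 14% of those of like level fell and 8.79% of all tested genes rose. The transcription factor gene skn-1 fell from 300 ± 2.23 CPM to 269 ± 7.05 CPM (log2 change -0.16, adjusted p 0.0345, edgeR quasi-likelihood, Benjamini-Hochberg), counted over all its forms and not for SKN-1A alone. The protease ddi-1 fell from 187 ± 7.76 CPM to 168 ± 5.91 CPM (-0.16, adjusted p 0.0199, same edgeR test), and mdt-15, a Mediator subunit, rose from 150 ± 4.77 CPM to 168 ± 2.72 CPM (0.16, adjusted p 0.0108, same edgeR test). The glycanase png-1 had differences of -0.06, -0.04 and -0.06 on the 3 diets and did not pass.

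Upstream of the proteasome, 28 tested genes of ubiquitin conjugation and the CDC-48 segregase had medians of -0.08, -0.06 and -0.09, and 0, 0 and 4 fell on desiccated thymus and the cytoplasmic and nuclear extracts, with none rising (edgeR's QL test). The 4 of 28 on the nuclear extract are a share close to the 14% of genes of like level that fell there, and nothing about the list is read from them. They were the ubiquitin-conjugating enzymes let-70, ubc-3 and ubc-25 and the CDC-48 cofactor ufd-1, with log2 changes of -0.14, -0.19, -0.14 and -0.21. At an unadjusted p under 0.05, 7 and 6 genes of the list differed on desiccated thymus and the cytoplasmic extract, against 16.5% and 12.6% of all tested genes.

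Lists of other large complexes gave mixed values. Of 6 tested COP9 signalosome genes, which resemble the proteasome lid, 1, 0 and 2 fell, among them csn-5 from 101 ± 0.397 CPM to 89.3 ± 3.95 CPM on desiccated thymus and 87.2 ± 3.09 CPM on the nuclear extract, and the medians were -0.07, -0.05 and -0.07. Of 8 genes of the CCT chaperonin, which folds actin and tubulin, 1, 0 and 1 fell, cct-6 in each case, with medians of -0.11, -0.06 and -0.04. On desiccated thymus and the cytoplasmic and nuclear extracts, 0.897%, 0.212% and 4.51% of all tested genes fell. Of the genes of like level 1.73%, 0.333% and 14% fell, and nothing about the COP9 and CCT lists is read from their counts. Of 11 genes of the translation initiation factor eIF3, none passed on any diet by edgeR's test, with 1, 1 and 3 at an unadjusted p under 0.05 (16.5%, 12.6% and 30.3% of all tested genes) and medians of 0.0029, -0.03 and -0.02. Proteasome reads per 100 eIF3 reads were 348 to 356 in the control, 328 to 339 on desiccated thymus, 338 to 341 on the cytoplasmic extract and 334 to 346 on the nuclear extract, so that no thymus library reached the control range. Proteasome reads per 100 proteasome-associated reads were 487 to 493 in the control and 492 to 503 on desiccated thymus. They were 494 to 505 on the cytoplasmic extract and 504 to 518 on the nuclear extract, both above the control range. Against the CCT, COP9 and ubiquitin conjugation lists the ratio overlapped the control on every diet. Proteasome reads per 100 CCT reads were 264 to 278 in the control, 268 to 284 on desiccated thymus, 259 to 274 on the cytoplasmic extract and 262 to 271 on the nuclear extract. Per 100 COP9 reads, in the same order, they were 1117 to 1131, 1107 to 1146, 1090 to 1117 and 1122 to 1157, and cytoplasmic extract replicate 2 alone of its diet reached the control range. Per 100 reads of the ubiquitin conjugation list they were 87.8 to 89.4, 86.9 to 88.2, 86.7 to 88.7 and 87.9 to 90.6.

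Markers of the germline and oocytes were also lower in the median on each thymus diet, but in a different order of diets. Their medians were -0.05, -0.07 and -0.11 on desiccated thymus and the cytoplasmic and nuclear extracts. Those of the proteasome genes were -0.09, -0.09 and -0.07, and those of the genes of like level -0.04, -0.04 and -0.07. The summed level of the 24 markers was 28100 to 29400 CPM in the control, 26900 to 27900 CPM on desiccated thymus, 26600 to 27700 CPM on the cytoplasmic extract and 25900 to 26800 CPM on the nuclear extract. By edgeR's QL test 0, 0 and 10 of the 24 fell and 1 rose, on the nuclear extract, where 4.51% of all tested genes fell there and 8.79% rose. At an unadjusted p under 0.05, 7 and 10 of the 24 differed on desiccated thymus and the cytoplasmic extract, against 16.5% and 12.6% of all tested genes. Proteasome reads per 100 reads of these markers were 28.4 to 29.6 in the control, 27.8 to 29 on desiccated thymus, 28.8 to 29.6 on the cytoplasmic extract and 29.7 to 30.7 on the nuclear extract. Measured against these markers, the proteasome genes were thus within the control range on the cytoplasmic extract, overlapped it on desiccated thymus and lay above it on the nuclear extract. The part of germline content in the lower proteasome levels was not tested.

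Markers of somatic tissues moved the other way in part. Of 14 tested intestine markers, 5, 0 and 7 rose and 0, 1 and 1 fell on desiccated thymus and the cytoplasmic and nuclear extracts (edgeR's QL test), where 2.97%, 0.5% and 8.79% of all tested genes rose. Their summed level was 2010 to 2210 CPM in the control, 2120 to 2390 CPM on desiccated thymus, 1920 to 2150 CPM on the cytoplasmic extract and 2170 to 2240 CPM on the nuclear extract. On the nuclear extract 4 of 10 hypodermis markers rose and none fell, with a median of 1.78, and 6 of 14 neuron markers rose and 1 fell, with a median of 0.40. On the other 2 diets no hypodermis or neuron marker passed the test. At an unadjusted p under 0.05, 3 and 3 hypodermis markers and 1 and 4 neuron markers differed on desiccated thymus and the cytoplasmic extract. Of all tested genes 16.5% and 12.6% did so there. The summed hypodermis level was 122 to 155 CPM in the control, 138 CPM in each library on desiccated thymus, 115 to 147 CPM on the cytoplasmic extract and 136 to 187 CPM on the nuclear extract. The summed neuron level was 380 to 418 CPM in the control, 395 to 401 CPM on desiccated thymus, 409 to 423 CPM on the cytoplasmic extract and 400 to 428 CPM on the nuclear extract. All these sums overlapped the control. None of 11 body wall muscle markers and 11 sperm markers passed on any diet. At an unadjusted p under 0.05, 0, 0 and 1 muscle and 0, 0 and 0 sperm markers differed, against 16.5%, 12.6% and 30.3% of all tested genes. The part of these tissues in the lower proteasome levels was not tested.

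**Figure D4:**
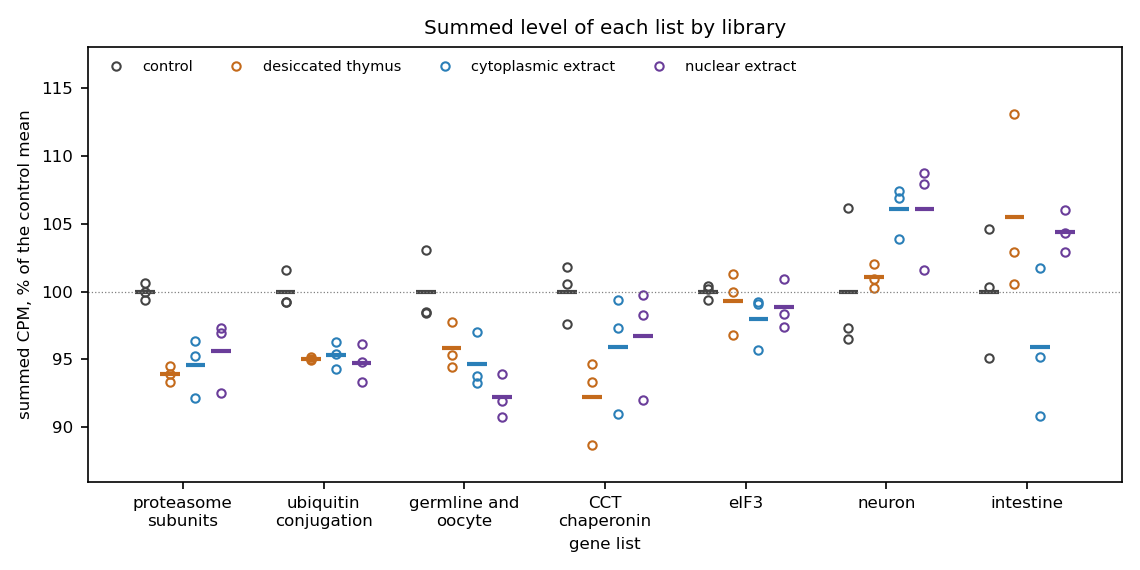
Summed CPM of each gene list (x axis) in each library as a percentage of the control mean of that list (y axis, not starting at 0); open circles are libraries and bars are the means of 3 libraries on each diet. The proteasome libraries lie at 99.4 to 101% in the control and between 92.2% and 97.3% on the thymus diets.

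The genes lie on 5 of the 6 chromosomes: 10 on I, 7 on II, 7 on III, 3 on IV and 5 on V in WBcel235. None lies on X, which holds 14.3% of the tested genes. In the Ensembl annotation each has between 2 and 7 merged exons. Exons of 11 of them overlap an exon of another gene, on the opposite strand for 10 and on the same strand for pbs-7, which shares 70 bases with K07A12.5. The largest overlap is that of rpn-7 with nemt-1, 394 bases. Among the genes that fell, rpt-2 shares 29 bases with fos-1 on the opposite strand, and pas-3 shares none. The sources used here do not say whether reads were counted by strand, so how reads in these overlaps were assigned is not known.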

How the data were processed

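Whole-worm mRNA was sequenced as pairs of 150 bases, per the labels' protocols. Read counts per gene were deposited as whole numbers, which the authors made with Trimmomatic, STAR, featureCounts and DESeq2, per the submitters' processing notes, which give no versions. The Length column of the deposited table, which is the exon length in bases per the file header, was used for levels per kb. Chromosome accessions in the table belong to build WBcel235. How strand and multi-mapping reads were handled is not given in the sources used here. The molecule field of the labels reads nuclear RNA although the protocol isolates total RNA, and the product names ThymusFD, Thymex and ThymusPMG are not tied to groups by the labels.

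Groups and replicate numbers came from sample titles, and count columns were matched to titles by the diet initials TD, TCF and TNF, an inference from names. The filter was filterByExpr by group, minimum count 10 (genes kept: 14610 of 46929, with 20979 at no count). The fit, in edgeR 4.0.16 under R 4.3.3, took all 12 libraries in a single robust quasi-likelihood (QL) model with a mean per diet and TMM scaling, which left 8 residual degrees of freedom at a biological coefficient of variation of 12.7%. P-values were two-sided, with Benjamini-Hochberg adjustment across the tested genes and 0.05 as the threshold. Adjusted p-values are from this edgeR fit where no tool is named. Exact permutation of 3 libraries against 3 cannot go below 0.1. Replicate pairs differed by more than sampling noise (chi-square per degree of freedom 5.85 to 321). The largest values, 321 and 203, were those of desiccated thymus replicate 3 with replicates 1 and 2 of that diet. All libraries were kept.

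The 32 genes and the other lists were chosen with earlier results of these data known. Values in all libraries are printed for members past the threshold against the control and, whatever their values, for pbs-1, pbs-2, pbs-5, rpn-6.1, rpn-10, rpn-11 and rpn-13; pas-4 was added after its values were seen. From each other list, up to 4 genes past the threshold of largest change per comparison, with aip-1 and skn-1, could be named, and png-1 was added because the background names it. Deviations from the group means correlated across genes by more than 0.1 between every same-numbered pair of the control and desiccated thymus (0.149, 0.471 and 0.199) and likewise between control and nuclear extract (0.383, 0.669 and 0.330). A replicate block, fitted as an alternative, paired the same-numbered libraries of all 4 diets, with those of the cytoplasmic extract included. Cytoplasmic extract replicate 1 correlated at -0.358 with control replicate 1. Scripts were tested on simulated data. Alternatives were RLE size factors, library totals, no filter, DESeq2 1.42.0, a replicate block, only the groups compared, each library left out and, chosen after seeing the data, totals without ribosomal RNA genes and edgeR's earlier quasi-likelihood method.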

Additional observations from a re-analysis of the deposited data

How the results depend on the processing

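The median log2 fold change of the 32 genes against the control was below 0 in all 83 values, 1 for each comparison and fit. These cover the reported fit and the alternatives, with the mean of the diets included. Values from the same fit share the control libraries, and the mean is made from the diets, so the values are not independent. The median ran from -0.13 to -0.06 for desiccated thymus, -0.11 to -0.05 for the cytoplasmic extract and -0.09 to -0.03 for the nuclear extract. The number of genes past the threshold moved more, and the cause was not tested. For desiccated thymus it was 3, and 6 with RLE size factors, 0 with library totals, 11 with DESeq2, 1 with the 2 groups alone and 0 to 4 when single libraries were left out. For the cytoplasmic extract it was 0, and 5 with DESeq2. For the nuclear extract it was 1, and 4 with RLE, 0 with totals, 9 with DESeq2 and 0 to 3 with single libraries left out. Between the extracts it was 1, and 0 with RLE, totals, no filter, the replicate block or the 2 groups alone, and 0 to 1 with single libraries left out. For the mean of the thymus diets it was 7, and 0 with totals, 4 with no filter, 15 with DESeq2, 2 with totals without ribosomal RNA genes and 1 to 9 with single libraries left out. For any difference among the diets it was 4, and 0 with totals, 1 with no filter, 14 with DESeq2, 2 with totals without ribosomal RNA genes and 0 to 3 with single libraries left out. With the replicate block, the counts were 3, 0 and 1 against the control, 7 for the mean and 3 for any difference. Only pbs-5 changed sign among the genes with values printed for all libraries by the naming rule: on the nuclear extract to 0.019 with totals, 0.014 with totals without ribosomal RNA genes and between -0.041 and 0.0080 with single libraries left out, and on desiccated thymus between -0.049 and 0.0034 with single libraries left out. For the nuclear extract against the control, 659 of all tested genes fell and 1284 rose with TMM, against 101 and 1254 with totals, 931 and 1276 with RLE, and 261 and 1413 with totals without ribosomal RNA genes. No scaling moved the median of all tested genes by over 0.1, a bound larger than the TMM medians of the 32 genes. With totals, all tested genes had medians of -0.04, 0.03 and 0.06 on desiccated thymus and the cytoplasmic and nuclear extracts against the control. With TMM these were -0.0027, 0.00076 and 0.02. The medians of the 32 genes were -0.13, -0.06 and -0.03 with totals and -0.09, -0.09 and -0.07 with TMM. Each gene had at least 2887 counts in a library, and standard errors were 0.03 to 0.05 on the log2 scale.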
